A study of Mus musculus with 7 samples.

Results

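The genes described here are the enzymes, transporters and regulators that carry glucose to lactate and into the mitochondrial pyruvate pool: glucose transporters, the enzymes of glycolysis, the lactate dehydrogenases and lactate transporters, and the pyruvate dehydrogenase complex with its kinases and pyruvate carboxylase. They were chosen by symbol, 33 in all, and were found under 34 of the 32212 gene identifiers in the deposited tables, because Aldoa stands under a pair of them. Their RNA was measured by mRNA sequencing of whole subcutaneous tumours grown in wild-type C57BL/6J mice from Lewis lung carcinoma (LLC) cells, an established murine lung tumour line, injected when the mice were 6 weeks old. The 7 libraries were 4 from tumour-bearing mice given no treatment (control) and 3 from mice given the high dose, 42.67 g/kg, of Ze-qi decoction (ZQD), a traditional herbal remedy; mice were assigned to these groups 3 days after the injection. The labels give both day 21 and day 22 for the tumour collection. Nothing in them ties each numbered sample to its own mouse, and the p-values therefore measure only how these samples spread, which may be technical. The sequencing platform is given as an Illumina or an MGI instrument without saying which served which library, so a platform difference among the libraries was not tested.

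Glycolysis splits glucose into pyruvate in the cytosol. Tumour cells often run it fast and turn much of the pyruvate into lactate, which leaves the cell through proton-linked transporters, even where oxygen is present. Pyruvate that is not reduced enters mitochondria, where the pyruvate dehydrogenase complex makes acetyl-CoA from it. The pyruvate dehydrogenase kinases switch that complex off. Transcription of many of these genes is driven by the hypoxia-inducible factors and by Myc.

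Counted reads per library ran from 32065288 to 49914394 among controls and from 34765330 to 38673663 among ZQD tumours. Levels are FPKM, the counted reads of a gene divided by its length and by the library's total, so each is a share of its library. Mitochondrially encoded protein genes took 6.66% ± 1.19 of reads in controls (SD, n = 4) and 10.1% ± 1.23 in ZQD (SD, n = 3), and all 13 had a positive log2 fold change. Summed macrophage and monocyte markers were at 885 to 1257 FPKM in the controls and 1284 to 1639 in ZQD, with positive log2 fold changes for 11 of 12 (9 after rescaling to TPM, 12 under the other scalings), Fcgr3 and Itgam having the smallest p, and no marker of the list at 0 in any library. The summed T cell markers (Thy1 and Cd2 first) were at 31.2 to 50.9 and 52.5 to 57.4 FPKM. Sums of the neutrophil (Lcn2, Clec4e), endothelial (Emcn, Cldn5), fibroblast (Col1a2, Col1a1), muscle (Tnnt3, Acta1), erythroid and platelet (Pf4, Ppbp) and proliferation (Birc5, Mki67) lists overlapped between the groups, although all 9 tested neutrophil markers and all 7 tested endothelial markers had positive log2 fold changes (medians 0.73 and 0.14; 9 of 10 and 4 of 8 after rescaling to TPM). The list of epithelial and lung markers also held Vim, a mesenchymal gene, which was at 460 to 704 FPKM and made up most of the list's sum. Krt19 was at 6.26 to 31.6 FPKM and Cdh1 at 0.551 to 1.26, whereas Epcam and Krt8 did not exceed 0.288 and 0.164. Nkx2-1 was listed at 0 in every library but ZQD 1. All 3 tested genes of the list (Cdh1, Krt19 and Vim) had negative log2 fold changes (median -0.22), as had all 5 tested after rescaling to TPM. None had an unadjusted limma p under 0.05 as reported. The sums overlapped, at 493 to 727 FPKM in the controls and 490 to 544 in ZQD. The part of these cell types and of the mitochondrial share in the values that follow was not tested, and in bulk tissue fewer cells of a type and less RNA per cell cannot be told apart.

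Together the genes took 0.878%, 1.03%, 0.999% and 1.30% of all counted reads in controls 1 to 4 and 0.666%, 0.883% and 0.857% in ZQD 1 to 3. The means were 1.05% ± 0.179 in controls (SD, n = 4) and 0.802% ± 0.118 in ZQD (SD, n = 3). ZQD 2 lay just above control 1, so the groups overlapped by that pair of libraries. Pkm was the most abundant gene in controls (561 ± 107 FPKM, mean ± SD, n = 4), followed by Pgk1 (440.1 ± 92.2), Aldoa (233 ± 38.3), Ldha (231 ± 45.2) and Eno1 (182 ± 40.3). Pkm and Pgk1 overlapped across control libraries, as did Aldoa, Ldha and Eno1, while every control library of Pgk1 lay above every one of Aldoa. At the other end were isoforms of the same steps, such as Slc2a3, Eno2, Aldoc, Pdk2 and Pfkfb2, with control means of 1.10 to 2.83 FPKM, and Pdk4 was at 0.0716 ± 0.0402 FPKM. In each library Slc2a1, Aldoa, Eno1 and Ldha held at least 91.3% of the summed FPKM of the isoforms of their step.

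**Figure D1:**
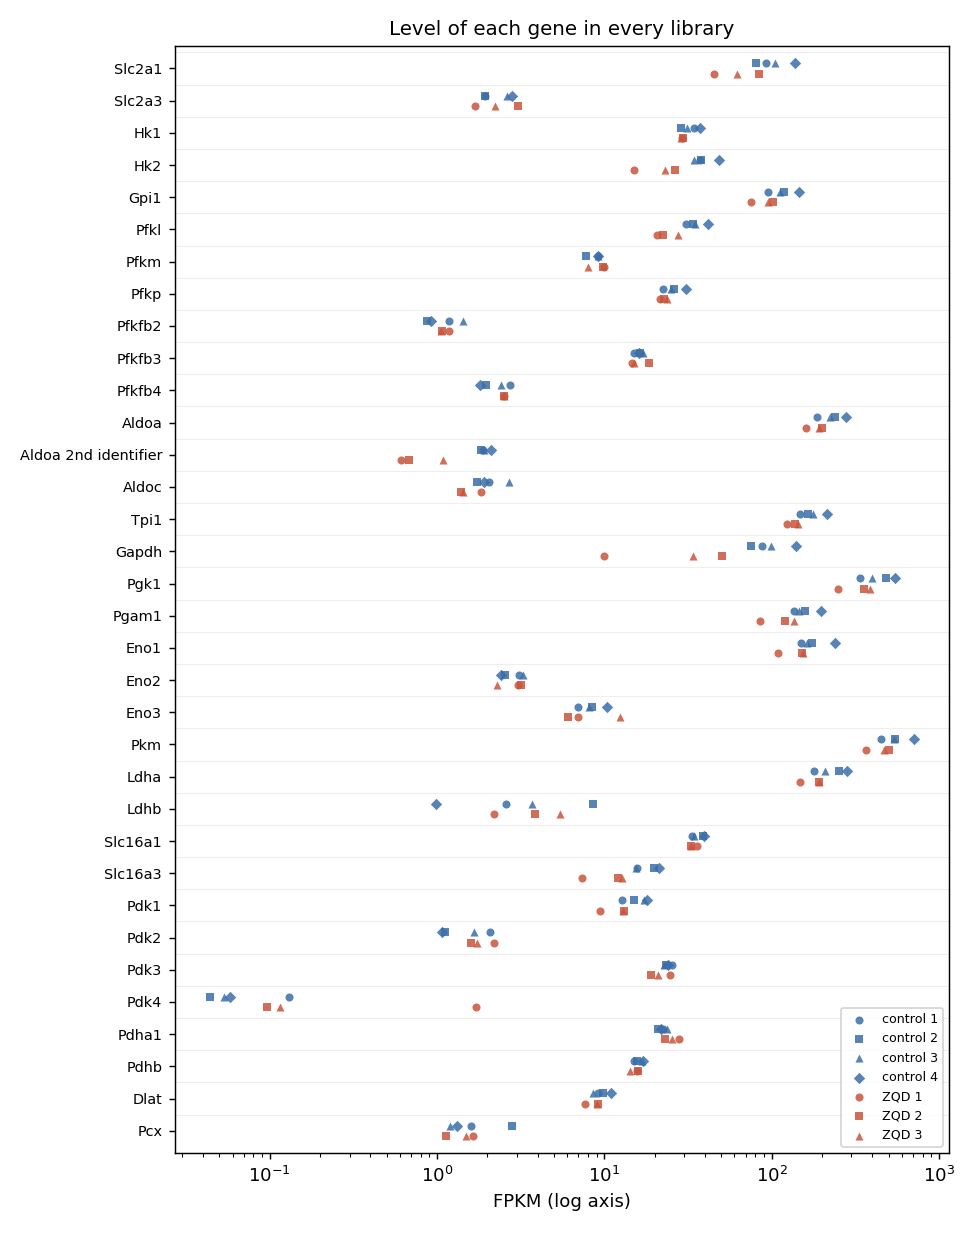
FPKM on a log axis for each gene in each library, in pathway order from glucose uptake to pyruvate carboxylase; blue symbols are the 4 controls, red symbols the 3 ZQD libraries, and each point is 1 library. Levels run from under 0.1 FPKM for Pdk4 to 709 for Pkm in control 4, and for Gapdh all 3 ZQD points (9.92 to 50.3) lie left of all 4 control points (75.8 to 139).

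ZQD tumours were compared with controls to ask what the decoction does to gene expression in the tumour. In the ZQD tumours 10 of the 33 tested identifiers had lower RNA levels at an unadjusted limma p under 0.05 (30.3%, against 10.3% of all tested genes), but none passed adjustment. Of these, the triose dehydrogenase Gapdh (-1.90) and the low-abundance identifier of Aldoa (-0.93) had the log2 fold changes largest in size. Next came the inducible hexokinase Hk2 (-0.89), the lactate exporter Slc16a3 (-0.75) and the glucose transporter Slc2a1 (-0.71). The groups of Slc2a1 overlapped. The values of Gapdh and of this Aldoa identifier are uncertain, as set out below. Counted with its near-identical copies in the genome, Gapdh had a mean log2 difference of -1.02. A fold change is the ZQD mean minus the control mean of log2(FPKM + 0.5), a scale on which low genes appear to change less than they do. In the limma fit over 14838 genes (empirical Bayes with trend, genes reaching 0.5 FPKM in 3 or more libraries), 33 of the 34 identifiers were tested, Pdk4 being under the filter, and none had a Benjamini-Hochberg adjusted p under 0.05. No gene of the whole table passed that threshold (0% of all tested), while 1533 were lower and 773 higher at an unadjusted p under 0.05. edgeR on reads recovered from the FPKM also gave 0 adjusted calls; at an unadjusted p under 0.05 it had 9 of the 33 lower and 1 higher, where 7.33% of all genes were lower (1087) and 7.65% higher (1134).

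At an unadjusted limma p under 0.05 no member was higher in ZQD (0 of 33), where 5.21% of all tested genes were. The 10 lower identifiers were Slc2a1, Hk2, Gpi1, Pfkl, the low-abundance identifier of Aldoa, Tpi1, Gapdh, Pgam1, Slc16a3 and Pdk1. For 7 of them, all but Slc2a1, Gpi1 and Pdk1, every ZQD library lay below every control (21.2% of the 33, against 9.84% of all tested genes), and no member lay wholly above (5.35% of all). The log2 fold change was negative for 26 of the 33 (78.8%, against 58.2% of all genes), with a median of -0.19, where the median of all genes was -0.043. DESeq2 on the recovered reads gave 4 of these genes an adjusted p under 0.05: Hk2 (adjusted p = 0.00289), Pfkl (0.0105), Slc16a3 (0.0224) and Gapdh (0.0444). By the same rule DESeq2 called 1.83% of 12525 genes lower and 2.3% higher.

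These counts moved with the scaling of the libraries. The 1533 lower and 773 higher genes at an unadjusted p under 0.05 became 1081 and 1095 with median-of-ratios factors, 1091 and 1095 with TMM, 1060 and 1169 when mitochondrially encoded genes were left out of the library total, and 3034 and 498 on the TPM scale. Of the 33 identifiers, 24 had a negative log2 fold change under each of the first 3 scalings and 29 on the TPM scale. The median over all genes moved too, to -0.0046, -0.0053, 0.0043 and -0.13 in the order given. That of the 33 identifiers was -0.15, -0.15, -0.14 and -0.30. With median-of-ratios or TMM factors 8 of them were lower at an unadjusted p under 0.05, Gpi1 and Pdk1 no longer among them, where 7.29% and 7.35% of all genes were, and on the TPM scale 19 were, where 16.4% of all were. The groups did not overlap, ZQD lower, for 5 with median-of-ratios factors (7.06% of all genes), 5 with TMM (7.07%), 6 without the mitochondrially encoded genes (6.68%) and 16 on the TPM scale (15.5%). Without the mitochondrially encoded genes 9 were lower (7.02% of all genes) and 1, Pdha1, was higher at an unadjusted p under 0.05, and the median was -0.14, where that of all genes was 0.0043. Hk2, Pfkl, the low-abundance Aldoa identifier, Gapdh and Slc16a3 had an unadjusted p under 0.05 in all 20 alternative analyses, and Gpi1 in 8 of them.

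A pair of libraries stood at the ends. Control 4 was the highest library for 20 of the 34 identifiers and ZQD 1 the lowest for 19, both at once for 17. Leaving both out, an analysis added after seeing the data, left 6 lower at an unadjusted limma p under 0.05 (Hk2, Pfkl, the low-abundance Aldoa identifier, Aldoc, Gapdh and Slc16a3), where 7.41% of all genes were lower, and moved the median from -0.19 to -0.10, while the groups then did not overlap for 10 (30.3%, against 19.5% of all genes). Leaving out control 1, the lowest control for most of the abundant enzymes, gave 16 lower (48.5%, against 7.81% of all genes), Aldoa, Pgk1, Eno1, Pkm and Ldha among them.

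**Figure D2:**
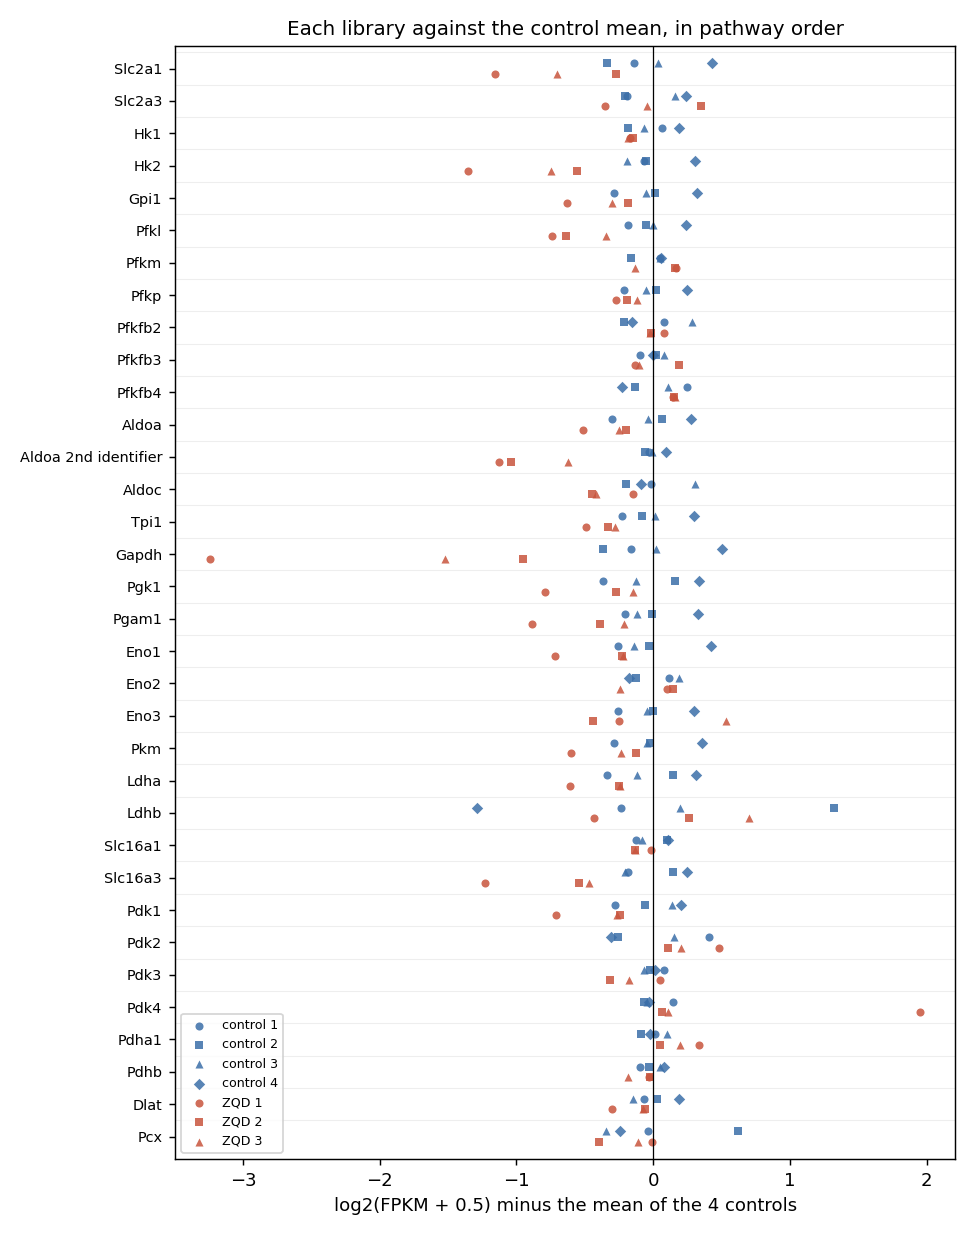
The log2(FPKM + 0.5) of each library minus the mean of the 4 controls, for every gene in pathway order; blue symbols are controls, red symbols ZQD, and the line at 0 is the control mean. ZQD 1 (red circles) is the leftmost point for most abundant glycolytic enzymes and control 4 (blue diamonds) the rightmost, and Pdk4 in ZQD 1 stands alone on the right.

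Promoter sequence of the members was read from RefSeq. The windows were the 250 bases before a transcription start on GRCm38.p6, and 32 of the 33 genes had at least 1 (49 windows). They were searched on both strands for ACGTG and GCGTG, the core letters of the hypoxia response element that hypoxia-inducible factors bind. ACGTG also lies inside CACGTG, the E-box that Myc and other factors bind, and CACGTG reads the same on both strands, so it counts as 2 matches. A match was present in 38 of the 49 windows (77.6%), against 38.6% of 32851 windows of all genes. These shares are by window, not by gene, and the 32851 windows belong to 27025 genes. Some windows of a gene overlap, as for Aldoa, Eno1 and Pfkm, so a site there can count more than once. ACGTG was in 40.8% against 16.6%, and CACGTG in 14.3% against 6.0%. The windows of these genes had a median GC content of 60.4%, against 52.4% for all, and the motifs hold G and C. Dlat, Eno2, Gpi1 and Tpi1 had no match in any window. Of these, Gpi1 and Tpi1 were lower at an unadjusted limma p under 0.05, and Dlat and Eno2 were not. A match is a description of these letters, not a bound site. To show the letters along the route from glucose to lactate, the windows of the transporter that brings glucose in, of the hexokinase that traps it, of a triose enzyme and of the main lactate dehydrogenase follow, with the motif in capitals. The first 3 genes were lower at an unadjusted p under 0.05, and Ldha was not. Ldha has another window in the table, downstream of the one shown, with 1 match and no ACGTG.
Slc2a1, chr4:119108495-119108744, plus strand: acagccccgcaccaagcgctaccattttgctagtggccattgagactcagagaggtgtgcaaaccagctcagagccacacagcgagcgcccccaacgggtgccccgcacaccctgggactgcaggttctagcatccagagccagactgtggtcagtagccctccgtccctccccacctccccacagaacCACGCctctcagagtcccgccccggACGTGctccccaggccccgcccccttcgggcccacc
Hk2, chr6:82774455-82774704, minus strand: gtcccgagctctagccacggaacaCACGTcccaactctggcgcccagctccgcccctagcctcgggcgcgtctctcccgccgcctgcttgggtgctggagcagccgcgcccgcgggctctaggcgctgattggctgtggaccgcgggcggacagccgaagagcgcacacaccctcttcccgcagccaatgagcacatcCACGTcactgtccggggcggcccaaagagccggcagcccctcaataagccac
Pgam1, chr19:41911621-41911870, plus strand: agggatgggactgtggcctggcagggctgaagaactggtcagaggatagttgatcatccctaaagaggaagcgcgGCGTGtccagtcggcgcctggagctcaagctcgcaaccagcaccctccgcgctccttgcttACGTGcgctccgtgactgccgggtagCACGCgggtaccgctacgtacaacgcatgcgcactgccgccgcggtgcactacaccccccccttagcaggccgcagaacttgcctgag
Ldha, chr7:46845554-46845803, plus strand: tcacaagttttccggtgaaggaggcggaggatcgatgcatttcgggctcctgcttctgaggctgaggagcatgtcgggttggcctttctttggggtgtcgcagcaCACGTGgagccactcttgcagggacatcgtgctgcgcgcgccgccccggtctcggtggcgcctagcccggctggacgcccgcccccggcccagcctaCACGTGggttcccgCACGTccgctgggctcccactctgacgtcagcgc

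The windows of the lactate transporters are set side by side because Slc16a3 was lower at an unadjusted p under 0.05 and Slc16a1 was not, while both windows hold the motif, 2 matches in Slc16a3 and 4 in Slc16a1.
Slc16a3, chr11:120948817-120949066, plus strand: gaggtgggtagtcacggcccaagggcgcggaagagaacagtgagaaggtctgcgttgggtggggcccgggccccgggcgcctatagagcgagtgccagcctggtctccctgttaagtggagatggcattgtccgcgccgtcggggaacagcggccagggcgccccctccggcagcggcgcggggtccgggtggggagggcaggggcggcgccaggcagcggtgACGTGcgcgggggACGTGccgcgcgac
Slc16a1, chr3:104638414-104638663, plus strand: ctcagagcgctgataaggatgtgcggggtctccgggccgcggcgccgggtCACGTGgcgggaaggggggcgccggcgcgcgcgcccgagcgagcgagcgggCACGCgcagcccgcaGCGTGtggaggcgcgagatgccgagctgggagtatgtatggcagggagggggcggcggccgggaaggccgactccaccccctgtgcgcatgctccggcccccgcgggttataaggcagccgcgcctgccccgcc

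Glucose enters cells through facilitative transporters, of which Slc2a1 (ENSMUSG00000028645) encodes GLUT1, the main glucose transporter of most tumour cells. It was at 92.2, 80.4, 104 and 137 FPKM in controls 1 to 4 and at 45.2, 84.1 and 62.2 FPKM in ZQD 1 to 3. ZQD 1 and 3 lay below all controls and ZQD 2 above control 2. The log2 fold change was -0.71 (SE 0.23, limma adjusted p = 0.228), and -0.49 without ZQD 1, where the unadjusted p was 0.0578. Slc2a3, which encodes the high-affinity transporter GLUT3, was at 1.92 to 2.79 FPKM in the controls and 1.68 to 3.06 in ZQD. Slc2a3 was thus 1.99% to 2.44% of the summed FPKM of the pair in the controls and 3.43% to 3.58% in ZQD.

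The hexokinases phosphorylate glucose and so hold it in the cell. Hk2 (ENSMUSG00000000628), the isoform induced in many tumours, was at 37.2, 37.7, 34.2 and 48.6 FPKM in the controls and at 15, 26.4 and 23.1 FPKM in ZQD. All ZQD libraries lay below all controls, and the log2 fold change was -0.89 (SE 0.19, limma adjusted p = 0.154). Hk1, the constitutive isoform, was at 28.8 to 37.3 FPKM in the controls and 28.8 to 29.5 in ZQD, which was inside the control range but for 1 library just under it. Hk2 therefore made up 47.9% to 51.7% of the summed FPKM of Hk1, Hk2 and Hk3 in the controls and 29.6% to 37.9% in ZQD. Hk3, an isoform of white blood cells that is not one of the 33 genes, made up 7.11% to 10.4% in the controls and 12.9% to 19.6% in ZQD, alongside the higher macrophage markers. Their part in that share was not tested.

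Gpi1 (ENSMUSG00000036427), which turns glucose 6-phosphate into fructose 6-phosphate and is the most abundant enzyme of the hexose stage, was at 95.7, 118, 113 and 146 FPKM in the controls and 75.4, 103 and 95 in ZQD. ZQD 2 lay inside the control range, and the log2 fold change was -0.37 (SE 0.16, limma adjusted p = 0.312).

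Phosphofructokinase commits the sugar to glycolysis and is the pathway's main control point. Its liver-type subunit Pfkl (ENSMUSG00000020277) was at 30.8, 33.8, 35 and 41.4 FPKM in the controls and at 20.7, 22.4 and 27.5 FPKM in ZQD. No ZQD library reached the lowest control. ZQD minus control was -0.57 in log2 units (SE 0.13, adjusted p = 0.154 in limma) and stayed between -0.69 and -0.49 with any 1 library left out. The other subunits overlapped between the groups. The platelet-type subunit Pfkp was at 22.4 to 30.8 FPKM in the controls and 21.4 to 23.8 in ZQD, and the muscle-type subunit Pfkm at 7.83 to 9.17 and 7.97 to 9.94. Of the summed FPKM of all 3 subunits, Pfkl made up 49.5% to 50.9% in controls, a narrow band, and 39.8% to 46.4% in ZQD, while Pfkp made up 35.9% to 38.7% in the controls and 40.2% to 41.2% in ZQD.

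The bifunctional PFKFB enzymes make and remove fructose 2,6-bisphosphate, the strongest activator of phosphofructokinase. Pfkfb3, the most abundant of the 3, was at 15.1, 16.4, 17.1 and 16.1 FPKM in the controls and 14.7, 18.5 and 15 in ZQD. ZQD libraries fell on both sides of the controls, with a log2 fold change of -0.015 (SE 0.10), which turned positive under median-of-ratios, TMM and the scaling without mitochondrially encoded genes (0.028 to 0.038). Pfkfb4 was at 1.81 to 2.72 FPKM in the controls and 2.50 to 2.53 in ZQD, and Pfkfb2 at 0.869 to 1.43 and 1.06 to 1.17. Pfkfb3 held 79.5% to 85.5% of the summed FPKM of the 3 in the controls and 80.0% to 83.8% in ZQD, so the makeup of this step overlapped between groups.

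Among the 11 identifiers of the triose stage, from aldolase to pyruvate kinase, 10 had a negative log2 fold change (58.2% of all genes did). The median was -0.37 (-0.043 over all genes). At an unadjusted limma p under 0.05, 4 were lower (as were 10.3% of all genes). They were Tpi1, Pgam1, Gapdh and the low-abundance Aldoa identifier, and the values of Gapdh and of that identifier are uncertain. Aldolase splits the 6-carbon sugar. The main Aldoa identifier (ENSMUSG00000030695) was at 186 to 278.9 FPKM in the controls and 161 to 200.5 in ZQD (log2 fold change -0.32), and the brain-type Aldoc at 1.74 to 2.68 and 1.39 to 1.82. The other Aldoa identifier (ENSMUSG00000114515) is a neighbouring locus on the same strand in the GENCODE M21 annotation and held 18 to 75 reads a library. It was at 1.88, 1.84, 1.91 and 2.10 FPKM in the controls and at 0.611, 0.680 and 1.08 in ZQD. All ZQD values lay below all controls (log2 fold change -0.93, SE 0.15, limma adjusted p = 0.131). How reads are split between these 2 loci depends on the counting, whose settings no source used here gives, so this value is uncertain.

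Tpi1 (ENSMUSG00000023456), which interconverts the triose phosphates, was at 148, 164, 176 and 214 FPKM in the controls and 123, 138 and 144 in ZQD. The highest ZQD library lay just below the lowest control as reported, and above it with median-of-ratios or TMM factors. In limma the log2 fold change came to -0.37 with an SE of 0.13 (adjusted p = 0.252), with an unadjusted p of 0.0761 without ZQD 1.

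Gapdh (ENSMUSG00000057666), the enzyme that oxidises glyceraldehyde 3-phosphate and a common reference gene in expression assays, was at 87.5, 75.8, 99.2 and 139 FPKM in the controls and at 9.92, 50.3 and 33.8 FPKM in ZQD. ZQD 1 was far below the rest, and all ZQD libraries lay below all controls. The log2 fold change was -1.90 (SE 0.48, limma adjusted p = 0.173). Without ZQD 1 it was -1.24, and without ZQD 1 and control 4 it was -1.07. The next log2 fold change in size was -0.93, and the genes on either side of it in the pathway, Tpi1 and Pgk1, had log2 fold changes of -0.37 and -0.41.

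Gapdh is also the member with the most near-identical copies in the mouse genome, many of them processed pseudogenes, to which its reads can be assigned. At 95% identity or more over at least 300 bases and at least 50% of the copy, 76 annotated copies were found and 74 stand in the deposited tables. The copies together held 104, 143, 157 and 159.6 RPM (counted reads scaled to a common library total) in the controls and 135, 160.2 and 158 in ZQD, values that overlapped. Much of this sum came from 1 pseudogene, Gm5559, with 2747 to 3071 reads in the controls and 3098 to 3795 in ZQD. All copies together held 5049 to 6285 reads in the controls and 4989 to 6194 in ZQD. Gapdh itself held 362, 313, 410.2 and 575 RPM in the controls and 41.0, 208 and 139.5 in ZQD. The copies therefore held 21.7% to 31.3% of the combined reads in the controls and 43.5% to 76.8% in ZQD. Gapdh with its copies was at 466, 456, 568 and 735 RPM in the controls and 176, 368 and 297 in ZQD, a mean log2 difference of -1.02 (two-sided exact permutation p = 0.0286, the smallest that 35 splits allow), against -1.93 for Gapdh alone. All ZQD libraries lay below all controls on both counts. The level of Gapdh is reported as uncertain, since the counting could split its reads. For the other abundant members copies held at most 2.66% of the combined reads.

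**Figure D3:**
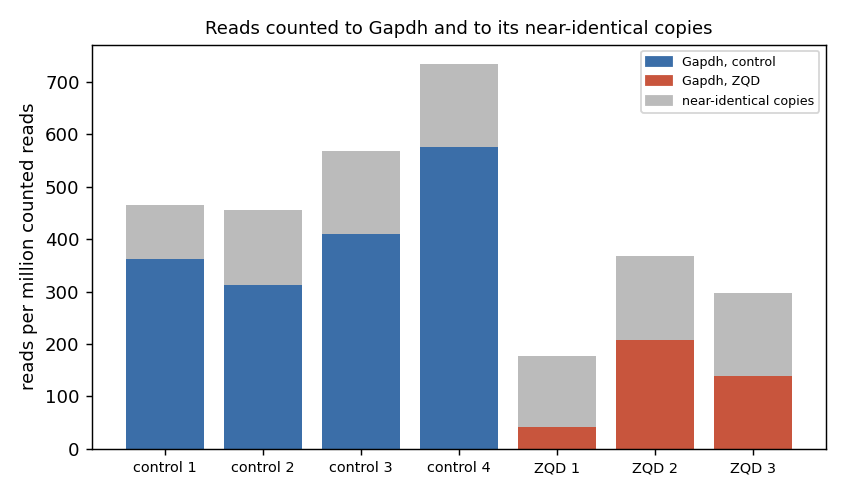
RPM in each library, stacked: the lower part of a bar is Gapdh (blue in the 4 controls, red in the 3 ZQD libraries) and the grey part its near-identical copies, 74 loci summed. The grey part is 104 to 159.6 in the controls and 135 to 160.2 in ZQD, while the coloured part is 313 to 575 in the controls and 41.0 to 208 in ZQD.

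Pgk1, which makes the first ATP of the pathway, was the second most abundant gene, at 336 to 545 FPKM in the controls and 249 to 389.7 in ZQD, and the groups overlapped. Pgam1 (ENSMUSG00000011752), the phosphoglycerate mutase, was at 137, 157, 146 and 198 FPKM in the controls and 85.4, 120.3 and 136 in ZQD. ZQD 3 came within 1 FPKM of the lowest control, control 1, without overlap as reported. With median-of-ratios or TMM factors, or without the mitochondrially encoded genes, ZQD 3 lay above control 1. The log2 fold change of Pgam1 was -0.50 (SE 0.18, limma adjusted p = 0.260), and the unadjusted p was 0.0540 without control 4 and 0.0926 without ZQD 1. Of the enolases, the ubiquitous Eno1 was at 149 to 240.1 FPKM in the controls and 109 to 153 in ZQD. The neuronal Eno2 was at 2.42 to 3.27 and 2.30 to 3.17, and the muscle form Eno3 at 6.95 to 10.4 and 6.07 to 12.4. Eno1 had a log2 fold change of -0.39, while those of Eno2 and Eno3 were 0.0017 and -0.051.

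Pkm (ENSMUSG00000032294), pyruvate kinase, makes pyruvate and the last ATP of glycolysis. It was at 453, 545, 536 and 709 FPKM in the controls and 365, 506 and 469.6 in ZQD. ZQD 2 and 3 lay inside the control range, and only ZQD 1 lay below it. ZQD minus control was -0.32 in log2 units (SE 0.17, adjusted p = 0.402 in limma). The gene-level values do not tell the M1 and M2 splice forms apart.

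Lactate dehydrogenase turns pyruvate into lactate and restores NAD+. Ldha (ENSMUSG00000063229), the muscle-type subunit, was at 179.7, 251, 209.8 and 282 FPKM in the controls and 149, 191 and 192 in ZQD. ZQD 2 and 3 lay inside the control range. In limma the log2 fold change came to -0.37 with an SE of 0.17 (adjusted p = 0.334). Ldhb, the heart-type subunit, was the most variable of the 33 genes among controls, at 2.59, 8.60, 3.67 and 0.986 FPKM, and was at 2.19, 3.85 and 5.42 in ZQD. Control 2 and control 4 were its highest and lowest libraries, with all ZQD values between them. Ldha held 96.7% to 99.7% of the summed FPKM of the pair in the controls and 97.3% to 98.5% in ZQD.

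Lactate leaves cells through monocarboxylate transporters. Slc16a3 (ENSMUSG00000025161) encodes MCT4, the exporter of strongly glycolytic cells. It was at 15.6, 19.8, 15.4 and 21.3 FPKM in the controls and at 7.34, 12.1 and 12.8 in ZQD. All ZQD libraries lay below all controls, ZQD 1 lowest. The log2 fold change was -0.75 (SE 0.20, limma adjusted p = 0.182) and lay between -0.89 and -0.51 with any 1 library left out. Slc16a1 (ENSMUSG00000032902), which encodes MCT1, carries lactate both ways. It was at 33.3, 39.0, 34.3 and 39.2 FPKM in the controls and 36.0, 33.1 and 33.2 in ZQD. Its groups overlapped, and the log2 fold change was -0.092 (SE 0.090, adjusted p = 0.655 in limma). Slc16a3 accordingly made up 31.0% to 35.2% of the summed FPKM of both in the controls and 16.9% to 27.8% in ZQD. Bsg, the chaperone that brings both transporters to the cell surface, was at 250.4 to 284 FPKM in the controls and 202 to 219.5 in ZQD (log2 fold change -0.31, SE 0.085, limma unadjusted p = 0.00577), with no overlap.

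**Figure D4:**
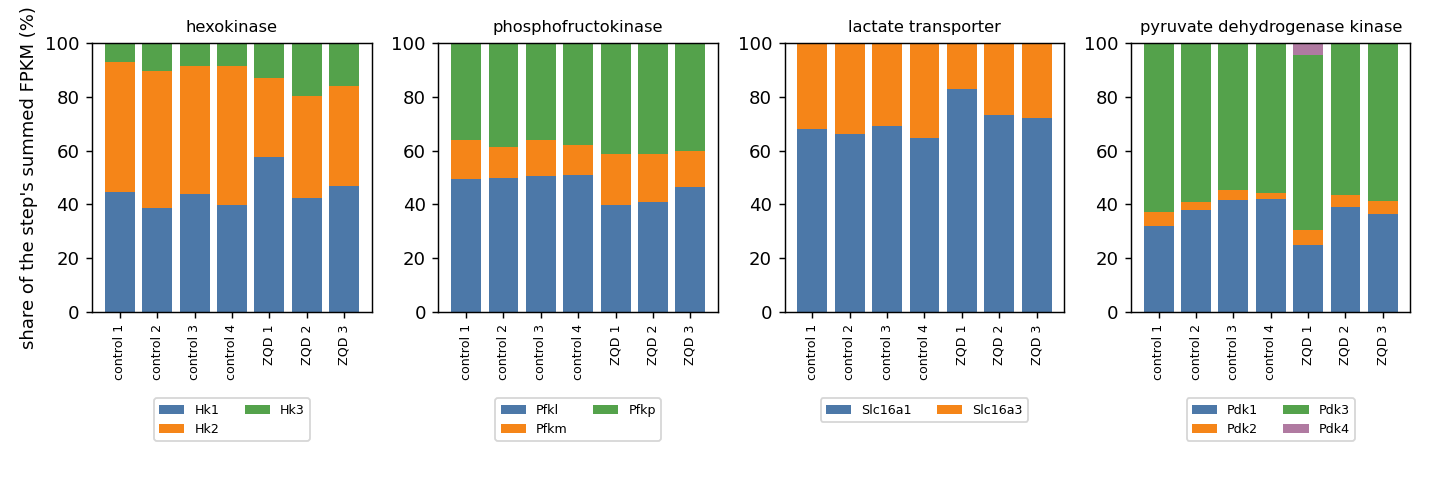
Share of each isoform in the summed FPKM of its step, in percent, for hexokinase, phosphofructokinase, the lactate transporters and the pyruvate dehydrogenase kinases; 1 bar per library, 4 controls then 3 ZQD. The Hk2 part is 47.9% to 51.7% in the controls and 29.6% to 37.9% in ZQD, the Pfkl part 49.5% to 50.9% and 39.8% to 46.4%, the Slc16a3 part 31.0% to 35.2% and 16.9% to 27.8%, and Pdk4 is visible in ZQD 1 alone (4.49%).

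At the entry of pyruvate into mitochondria 7 of the genes were tested, and 1 of them was lower at an unadjusted p under 0.05, where 10.3% of all genes were. This was Pdk1 (ENSMUSG00000006494), a kinase that inactivates pyruvate dehydrogenase and is induced by hypoxia. It was at 12.8, 15.02, 17.3 and 18.1 FPKM in the controls and 9.41, 13.2 and 13.0 in ZQD. ZQD 2 and 3 lay just above control 1. ZQD minus control was -0.40 in log2 units (SE 0.16, adjusted p = 0.280 in limma), and the unadjusted p was 0.122 without ZQD 1. Pdk3, the most abundant of the kinases, was at 25.2, 23.4, 22.7 and 24 FPKM in the controls and 24.7, 19.1 and 21.0 in ZQD. It varied least of all the genes among controls. ZQD 2 and 3 lay below the controls and ZQD 1 within them (log2 fold change -0.15, SE 0.10, limma adjusted p = 0.507). Pdk2 was at 1.07 to 2.08 FPKM in the controls and 1.59 to 2.20 in ZQD.

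Pdk4, the kinase that rises with fasting and fat use, was at 0.131, 0.0440, 0.0533 and 0.0578 FPKM in controls (23, 6, 6 and 8 reads) and at 1.71, 0.0957 and 0.115 FPKM in ZQD (221, 13 and 14 reads). ZQD 1 alone held most of its reads, and ZQD 2 and 3 lay inside the control range. In ZQD 1 the adipocyte markers summed to 106.5 FPKM, against 5.42 to 9.99 in controls, 27.9 in ZQD 2 and 6.86 in ZQD 3. All 3 tested genes of that list of 8 (Lpl and Fabp4 first) had a positive log2 fold change, and Adipoq was listed at 0 in control 2 and ZQD 3. Pck1, the gluconeogenic enzyme that fat cells also express, was at 1.84 FPKM in ZQD 1 and at most 0.0909 in any other library. The part of fat cells in the Pdk4 value was not tested.

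The pyruvate dehydrogenase subunits had log2 fold changes of -0.15 to 0.20. Pdha1 (ENSMUSG00000031299), the catalytic alpha subunit and the most abundant of the 3, was at 22.3, 20.8, 23.8 and 21.8 FPKM in the controls and 28.1, 23.0 and 25.5 in ZQD. ZQD 1 and 3 lay above all controls and ZQD 2 within them. In limma the log2 fold change came to 0.20 with an SE of 0.092 (adjusted p = 0.350); it was the sole member with an unadjusted p under 0.05 on the higher side in any alternative, in 7 of 20. The beta subunit Pdhb was at 15.1 to 17.1 and 14.2 to 15.9 FPKM, and Dlat, the acetyltransferase core, at 8.58 to 11 and 7.67 to 9.14. Pcx, which carboxylates pyruvate to oxaloacetate, was at 1.60, 2.81, 1.19 and 1.32 FPKM in the controls and 1.64, 1.14 and 1.49 in ZQD. Its groups overlapped widely (log2 fold change -0.17, SE 0.24, limma adjusted p = 0.763).

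Ratios of 2 genes within a library do not depend on how libraries are scaled, and 12 were compared with a permutation test (exact, two-sided), which has 35 splits and a smallest p of 0.0286. Slc2a1 to Slc2a3 was 47.5, 41.8, 39.9 and 49.2 in the control libraries and 26.9, 27.5 and 28.2 in ZQD. The ZQD values nearly coincided and lay below every control (log2 difference -0.69, exact p = 0.0286). Hk2 to Hk1 was 1.09, 1.31, 1.10 and 1.30 in the control libraries and 0.515, 0.893 and 0.803 in ZQD, so Hk2 was the higher of the pair in every control and the lower in every ZQD library (-0.735, exact p = 0.0286). Slc16a3 to Slc16a1 was 0.470, 0.508, 0.449 and 0.543 in the control libraries and 0.204, 0.365 and 0.384 in ZQD, again without overlap (-0.68, exact p = 0.0286).

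Pdk1 to Pdha1 was 0.5742, 0.722, 0.728 and 0.831 in the control libraries and 0.335, 0.5737 and 0.510 in ZQD; the ranges met without overlapping (log2 difference -0.62, exact p = 0.0571). Pfkl to Pfkm was 3.38 to 4.52 in the controls and 2.09 to 3.45 in ZQD (-0.65, exact p = 0.0571). None of the 12 passed Benjamini-Hochberg adjustment at 0.05: the adjusted exact p was 0.114 for the first 3 and 0.137 for the next 2. The other ratios had exact p of 0.171 to 0.8. Among them, Ldha to Ldhb, Ldha to Pdhb and Pkm to Pcx had log2 differences of -0.625, -0.29 and -0.11. Aldoa to Aldoc (0.11), Eno1 to Eno2 (-0.39), Pfkfb3 to Pfkfb4 (-0.20) and Pdk1 to Pdk2 (-0.775) also overlapped between groups.

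**Figure D5:**
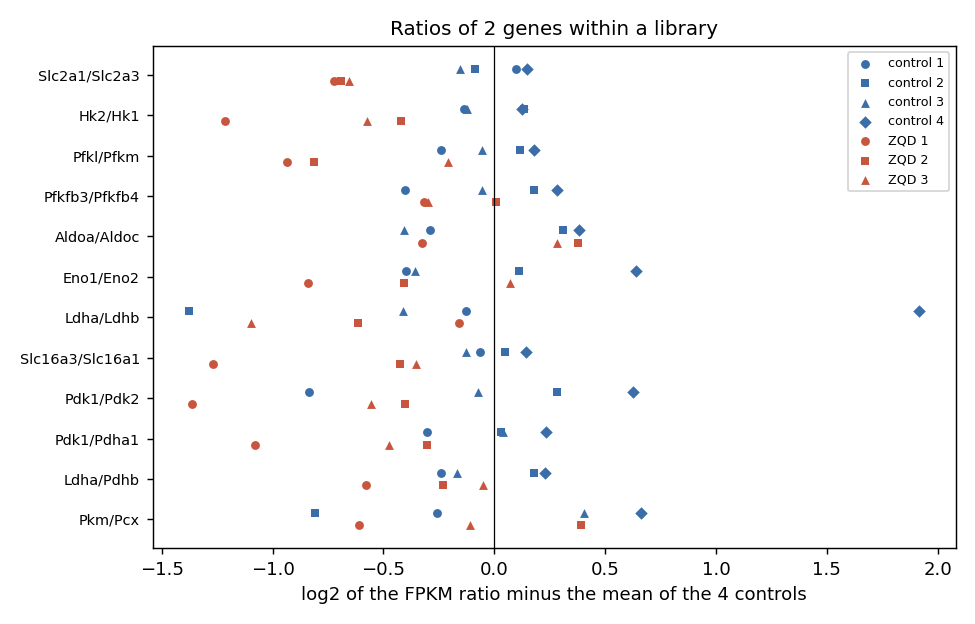
The log2 of the FPKM ratio of 2 genes in each library minus the mean of the 4 controls, for 12 ratios; blue symbols are controls and red symbols ZQD, 1 point per library. For Slc2a1/Slc2a3, Hk2/Hk1 and Slc16a3/Slc16a1 all red points lie left of all blue points, with mean differences of -0.69, -0.735 and -0.68.

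Genes around the pathway gave a background for these values; p-values in the next paragraphs are unadjusted limma p-values, and no gene named there passed the adjusted threshold. Of all tested genes 10.3% were lower and 5.21% higher by that rule. Of 14 tested isozymes and transporters outside the 33 genes, 2 were lower at p under 0.05, Bsg and the ADP-dependent glucokinase Adpgk (7.12 to 8.29 against 5.72 to 6.79 FPKM), and 0 were higher. Of 11 tested genes of pyruvate entry and gluconeogenesis, 2 were lower, Pck2 (log2 fold change -0.55) and the malic enzyme Me1 (-0.29), and 2 higher, the malic enzyme Me2 (0.26) and Pdhx (0.20), a structural subunit of the pyruvate dehydrogenase complex. Of 14 glycogen and glycerol genes 3 were lower, the lysosomal glucosidase Gaa (44.0 to 58.6 against 28.2 to 33.7 FPKM, -0.62), glycogen synthase Gys1 (-0.35) and the phosphoglucomutase Pgm1 (-0.37). Of 10 pentose phosphate genes 2 were lower, Pgls (-0.63) and H6pd (-0.30), and the entry enzyme G6pdx had a log2 fold change of 0.24. The citric acid cycle, with 22 genes tested, had 1 lower (Ogdh, -0.23), 1 higher (Sucla2, 0.24) and a median log2 fold change of 0.0021, where the 33 identifiers of glycolysis and pyruvate entry had -0.19.

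Of 15 tested oxygen-regulated genes outside glycolysis, 6 were lower in ZQD at p under 0.05, where 10.3% of all genes were, and 0 were higher. All 15 had a negative log2 fold change as reported (58.2% of all genes did) and after rescaling to TPM, and 13 did under median-of-ratios scaling, TMM scaling or without mitochondrially encoded genes, where Bnip3l and Mxi1 turned positive. Their median was -0.31, against -0.043 over all genes, and Bnip3l, Mxi1 and Car9 had values of -0.018, -0.032 and -0.082. P4ha2 and P4ha1, collagen prolyl hydroxylases, were at 29.0 to 30.3 and 75.2 to 92.0 FPKM in the controls and at 18.3 to 20.6 and 45.4 to 57.3 in ZQD. Egln3, an oxygen sensor that marks hypoxia-inducible factors for degradation, was at 59.5 to 71.5 and 40.7 to 46.7 FPKM. Ankrd37, Kdm3a and Bnip3 had log2 fold changes of -0.65, -0.29 and -0.47. Hif1a itself, the oxygen-regulated subunit of the factor, was at 40.6 to 49.5 FPKM in the controls and 44.8 to 52.7 in ZQD (log2 fold change 0.054). Its RNA level is no measure of the protein, which oxygen controls.

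Among 11 tested regulators of glycolytic transcription, 2 were lower and 2 higher at p under 0.05 (10.3% and 5.21% of all genes). Myc was at 97.3, 116, 103 and 118 FPKM in the controls and 58.7, 88.1 and 84.1 in ZQD, below every control (log2 fold change -0.51, SE 0.15, limma adjusted p = 0.195). Foxk1, a forkhead factor that induces glycolytic enzymes, was also lower (-0.38). Txnip, which restrains glucose uptake and is induced by glucose itself, was at 20.7, 16.4, 23.4 and 16.7 FPKM in the controls and 53.2, 34.2 and 27.5 in ZQD. All ZQD libraries lay above all controls (0.93, SE 0.22, limma adjusted p = 0.156). Epas1, which encodes HIF-2 alpha, had a log2 fold change of 0.51.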

How the data were processed

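Messenger RNA of 7 tumour libraries was analysed, 4 control and 3 ZQD, grouped by the treatment label. FPKM were deposited by the authors for every library, and raw counts only for controls 1 and 2. The submitters' processing notes name HISAT2, featureCounts, Subread and DESeq2; their versions, the strandedness, the build and the annotation were not stated in any source used here. Counts and FPKM of controls 1 and 2, as deposited, yielded gene lengths for 27421 of 32212 identifiers. With these lengths reads were recovered in every library, and 100% of the values lay within 0.05 of a whole number. At 1 kb a single read equals 0.020 to 0.031 FPKM, and the limit for a count of 0 (3 reads, counting error alone) is 0.060 to 0.094 FPKM. A gene name table gave symbols for 31571 identifiers (98.0%).

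The limma test (limma 3.58.1 in R 4.3.3) used log2(FPKM + 0.5) and kept 14838 genes that reached 0.5 FPKM in 3 or more libraries. It was two-sided, with Benjamini-Hochberg adjustment over all of them. Recovered reads of 14832 genes went to edgeR 4.0.16 (quasi-likelihood) and DESeq2 1.42.0, which left 2307 genes without an adjusted p; these are not counted among its calls. Ratios within a library had two-sided exact permutation tests. Further alternatives changed the pseudocount, filter, scaling or trend, added the replicate number as a block, or left out a library. Near-identical copies were sought with BLAST 2.17.0 against GENCODE M21 transcripts, after seeing the data. Promoter windows are those of RefSeq on GRCm38.p6. Scripts were tested on simulated data; matplotlib 3.10.9 under Python 3.11.15 drew the figures. The members and lists were chosen with earlier results of these data known. Every member was named. Values in every library were given for members with no overlap or an unadjusted p under 0.05 and for the most abundant member of each role; those of Ldhb, Pdk4, Myc and Txnip were added after their values were seen. From each other list the genes of smallest p were named.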

Additional observations from a re-analysis of the deposited data

Results flagged for a closer look

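Among the 4 controls, 46 sets of values (34 identifiers and 12 ratios) were checked for a library far from the others by Dixon's criterion at the 95% level, and chance marks about 1 in 20 such groups. A pair of values was marked. Pfkm was at 7.83 FPKM in control 2, while the other controls lay close together, up to 9.17. Pdk4 was at 0.131 FPKM in control 1 (23 reads), above the other controls, the lowest of which was at 0.0440 (6 reads). Control 1 was also the control with the highest sum of skeletal muscle markers, 31.0 FPKM against 2.26 to 3.34 in the other controls, and the part of muscle in the Pdk4 value was not tested.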

How the results depend on the processing

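Over 33 tested identifiers and 20 alternatives there were 660 values. Of these, 610 kept their direction and their side of the adjusted threshold. A further 4 passed it (the DESeq2 calls of Hk2, Pfkl, Gapdh and Slc16a3), 46 changed sign, and 25 identifiers never changed sign. The replicate block gave the same log2 fold changes as leaving out control 4, since there is no ZQD 4 to set beside it. The same values therefore count under both settings. Genes past the adjusted threshold numbered 517 with DESeq2 and 1 with the replicate block. The members lower at an unadjusted p under 0.05 numbered 19 on the TPM scale (against 16.4% of all genes). With median-of-ratios or TMM factors they numbered 8 (against 7.29% and 7.35%). Without control 4 and ZQD 1 together, added after seeing the data, they numbered 6 (against 7.41%). With 1 library left out they numbered 7 to 16, 16 being without control 1 (against 7.53% to 10.1% of all genes). The member higher, Pdha1, counted 1 without the filter, with median-of-ratios, TMM, the scaling without mitochondrially encoded genes, edgeR and DESeq2. In that order 1383 of 32212, 1095 of 14828, 1095 of 14841, 1169 of 15096, 1134 of 14832 and 1188 of 14832 genes were higher. With 1 library left out Pdha1 counted 0 to 1, the 1 being without ZQD 2, where 661 of 14640 genes were higher. Members that did not overlap numbered 16 on the TPM scale (against 15.5% of all genes) and 5 with median-of-ratios or TMM factors (against 7.06% and 7.07%). Without mitochondrially encoded genes they numbered 6 (against 6.68%). With 1 library left out they numbered 7 to 15, where 11.9% to 17.4% of all genes did not overlap. Without ZQD 3 the members were at 21.2%, near the 17.4% of all genes. The median was -0.30 to -0.20 with 1 library left out. The labels do not say whether the replicate numbers pair the libraries. Deviations of same-numbered libraries from their group means correlated at 0.25, 0.0998 and -0.15. ZQD 1 was at 0.252 with control 1 and 0.255 with control 3. So few correlations cannot decide on a pairing. With the replicate block 11 members were lower (33.3%, against 8.03% of all genes) and 0 higher, where 596 of 14838 genes were higher. Sign changes are given in log2. Slc2a3 was at 0.021 (median-of-ratios), 0.020 (TMM), 0.028 (without mitochondrially encoded genes), 0.047 (edgeR), 0.048 (DESeq2), 0.063 (replicate block), 0.23 (without control 4 and ZQD 1) and -0.20 to 0.15 with 1 library left out. Pfkfb3 was, in the first 5 of these settings, at 0.029, 0.028, 0.038, 0.037 and 0.038, without both libraries at 0.043, and -0.12 to 0.044 with 1 left out. On the TPM scale Pfkm was at -0.035, Pfkfb2 at -0.068 and Eno2 at -0.096. With the replicate block, and likewise without control 4, Pfkfb2 was at -0.038, Eno2 at -0.058, Eno3 at 0.048 and Ldhb at -0.25. Without control 4 and ZQD 1 together Pfkfb2 was at -0.071, Eno2 at -0.11 and Eno3 at 0.15. With edgeR and DESeq2 Eno3 was at 0.037 and 0.038 and Ldhb at -0.0090 and -0.0065. With 1 library left out Pfkfb2 ranged from -0.057 to 0.11, Eno2 from -0.071 to 0.12, Eno3 from -0.34 to 0.14, Ldhb from -0.25 to 0.62 and Pcx from -0.29 to 0.037. The cause of these changes was not tested. The count of ratios with an exact p under 0.05 has no value with a library left out, since 3 against 3 cannot go below 0.1 and 4 against 2 not below 0.0667, nor for 3 pairs (0.25). At 6 to 75 reads a library in most cases, depth limits Pdk4 and the low-abundance Aldoa identifier most.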
